A study of Mus musculus with 5 samples.

Results

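Most of the genes described here encode the surface molecules by which cells hold on to vessel walls, to matrix and to each other. These are integrins, selectins and their counter-receptors, cadherins, claudins and occludin, with the zonula occludens scaffolds. All genes were chosen by gene symbol from the array's annotation, leaving out Cdh5. In all, 76 such genes were named by 84 of the 14722 probes with 1 gene symbol. Of these, 52 genes were measured, here meaning a ratio in 4 or 5 mice, among 9727 genes so measured in all. The other 24 are accounted for below. Of the 76, 6 carry a similar name but encode no adhesion receptor of these families, and 3 of those 6 were measured. Lung RNA of 5 C3H ova mice, given the egg-white allergen ovalbumin by sensitisation and then challenge, was put mouse by mouse on 2-colour arrays against 1 pool of lung RNA from control C3H mice. C3H is an inbred mouse strain, both sides of each array were amplified RNA, and the sources used here do not give the pool's size. The deposited value is a log ratio of ova lung and pool, taken here as log2. Each array was centred on its median, and probes of 1 gene were averaged.

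Leukocytes leave the blood in steps. Selectins on activated endothelium catch flowing cells through carbohydrate ligands such as PSGL-1, and integrins on the leukocyte then bind ICAM and VCAM molecules of the vessel wall. Integrins are pairs of an alpha and a beta chain, and some beta chains are shared by several alpha partners. In epithelium, E-cadherin holds neighbouring cells together, claudins and occludin seal the space between them, zonula occludens proteins tie the seal to actin, and other integrins anchor the cells to matrix. In asthma models the lung takes up eosinophils, monocytes and lymphocytes by the first route while its epithelium is remodelled.

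The labels do not settle which sample is the numerator, so each gene is given by its side of the ratio. The titles name the ova mouse first, yet 6 genes known to be raised in allergic mouse airways all lay on the negative side. Retnla, the resistin-like alpha gene, had a mean log ratio of -4.79, Clca1, a goblet cell gene, -4.33, Rnase2a, an eosinophil-associated ribonuclease gene, -4.23 and Arg1, the arginase gene, -3.48, with Muc5ac, an airway mucin gene, at -3.00 and Ccl11, the eotaxin gene, at -0.94. Arrays held values for between 11778 and 13320 of 17280 probes, and arrays correlated pairwise over probes with a Pearson's r of 0.64 to 0.83. Ratios were smaller in mouse 1, where the SD across probes was 0.20, against 0.32 to 0.38 in mice 2 to 5. Spot brightness was not available, so ratios from signals near background could not be told from those of bright spots. The number of arrays limits the precision, and the shared pool leaves the spread among control mice unmeasured. A moderated two-sided test from limma set each gene's mean against 0, and p-values were Benjamini-Hochberg adjusted over all 9727 genes with a threshold of 0.05.

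Adhesion genes lay on both sides. Of the 52 measured, 20 passed the threshold (38.5%), where 27.3% of all 9727 genes did. On the negative side were 11 (21.2%, against 15.0% of all genes) and on the positive side 9 (17.3%, against 12.3% of all genes). Of those 9, 2 (Itgbl1 and Cldnd1) carry a similar name but encode no adhesion receptor. The median size of the mean ratio was 0.15 in the adhesion genes and 0.11 over all genes, and the median SD between mice was 0.16 and 0.13. Of the 20, 3 had a mean beyond 0.5 in size (Itgb2, Itga4 and Cldn5), or 15%, against 22.9% of all 2656 genes past the threshold. In every mouse that measured them 17 members lay below 0 (32.7%, against 20.9% of all genes) and 9 lay above it (17.3%, against 19.2%), and the remaining 26 had values on both sides. The count past the threshold was 13 without mouse 3 and 11 without mouse 5, when 16.3% and 16% of all genes passed. On the positive side it was 5, 4, 5 and 4 without mouse 2, 3, 4 and 5, and on the negative side 7 without mouse 5. In these 4 fits 53, 53, 56 and 54 members were tested. Of all genes, 19.2%, 16.3%, 20.4% and 16% passed in them, both sides together.

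**Figure D1:**
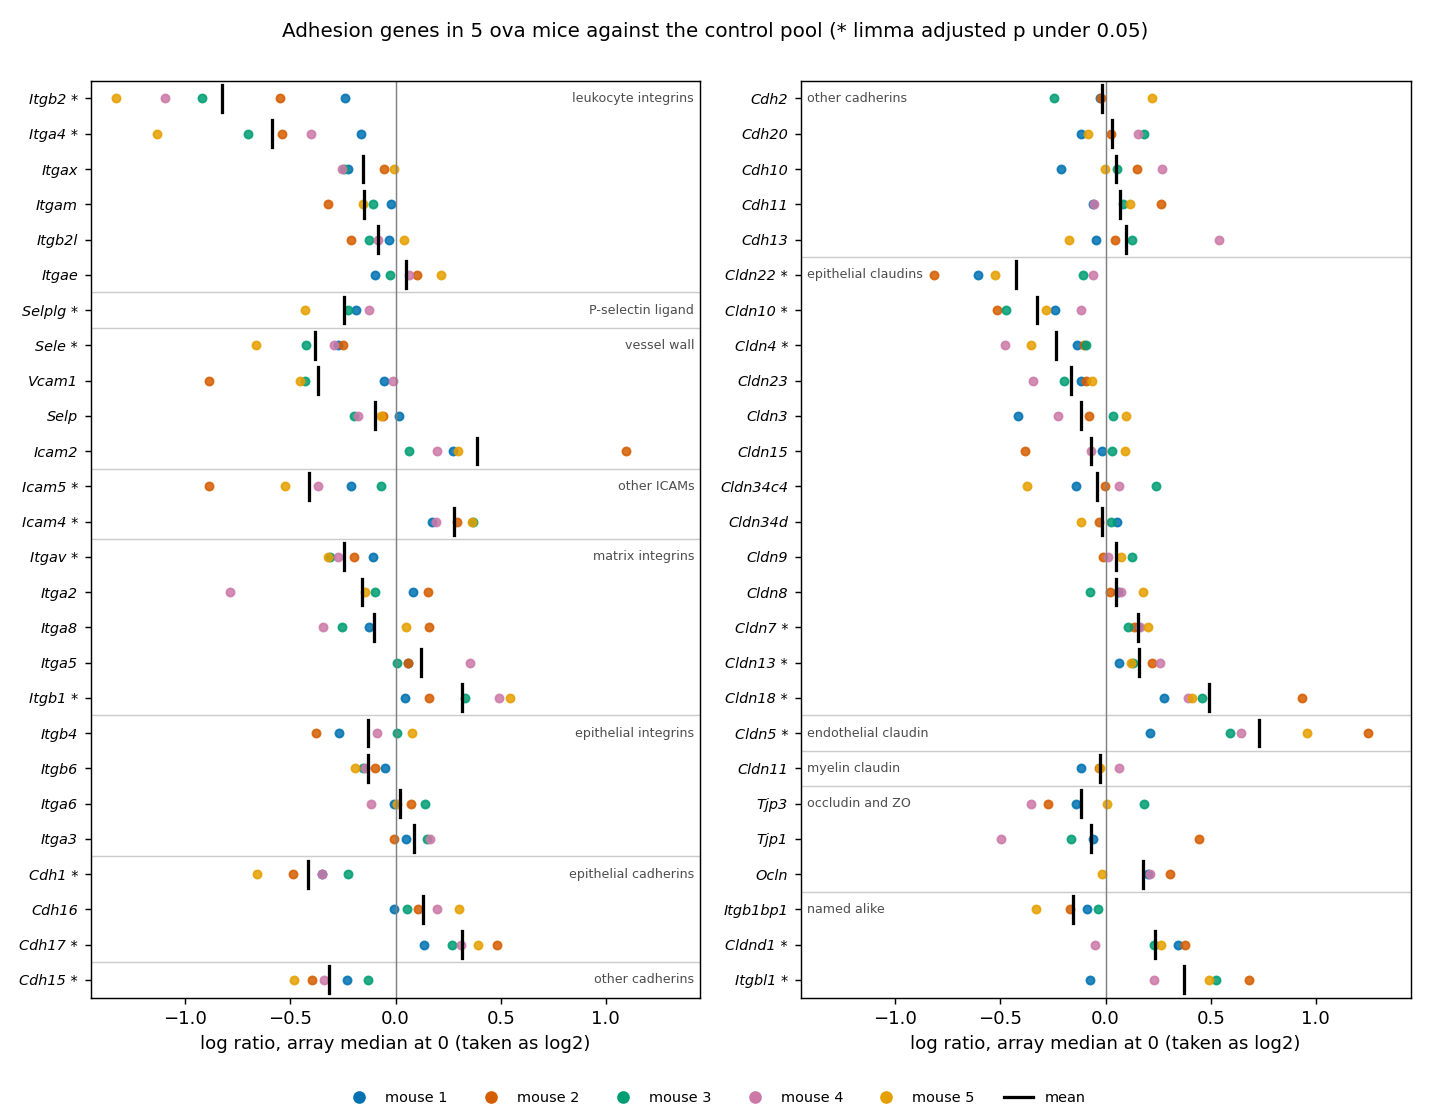
Log ratio (x axis, taken as log2, array median at 0) of each of the 52 measured adhesion genes (rows, grouped by role) in the 5 ova mice (coloured points), with the mean over mice as a bar and an asterisk at a limma adjusted p under 0.05. Itgb2 and Itga4 reach furthest to the negative side, with means of -0.83 and -0.59, and Cldn5 to the positive side with 0.73.

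The leukocyte integrins were led by Itgb2, the beta chain shared by the receptors LFA-1 and Mac-1 of white blood cells. Itgb2 had log ratios of -0.24, -0.55, -0.92, -1.10 and -1.33 in mice 1 to 5. All lay below 0, with mouse 1 nearest to it and mouse 5 farthest. The mean was -0.83 ± 0.43 (SD, n = 5, limma adjusted p = 0.00566), a 1.77-fold difference if the log base is 2. Its alpha partners were nearer to 0. Itgax, the alpha chain of dendritic cells and lung macrophages, gave -0.22, -0.05, -0.24, -0.26 and -0.01 in mice 1 to 5, a mean of -0.16 ± 0.12 that did not pass (limma adjusted p = 0.0674). Itgam, the Mac-1 alpha chain of myeloid cells, gave -0.02, -0.32, -0.11 and -0.15 in mice 1, 2, 3 and 5, with a mean of -0.15 ± 0.13 (limma adjusted p = 0.123, n = 4), or -0.094 without mouse 2. Both alpha chains were below 0 on every array that measured them. The Itgam probe lies 18 table positions from a strong probe naming Dnmt3a (-1.08), a distance at which ratios of probes of different genes correlated with an r of 0.11. Itgal, the LFA-1 alpha chain, had no value on any array.

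Itga4, the alpha chain by which eosinophils, lymphocytes and monocytes bind VCAM-1, was the other leukocyte integrin past the threshold. It had log ratios of -0.16, -0.54, -0.70, -0.40 and -1.14 in mice 1 to 5. Again every mouse lay below 0 and mouse 1 had the smallest ratio. The mean was -0.59 ± 0.36 (SD, n = 5, limma adjusted p = 0.0109), 1.5-fold under base 2. Itgae, which pairs with Itgb7 on lymphocytes within epithelium, had -0.10, 0.10, -0.03, 0.06 and 0.22 in mice 1 to 5 and did not pass (limma adjusted p = 0.533). Itgb7 had a value in mouse 4 only (-0.21). Itgb2l, a relative of Itgb2 known from mouse neutrophils, averaged -0.08 over 2 probes that differed: the first averaged 0.05 (n = 5) and the second -0.27 (n = 4).

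Selplg encodes PSGL-1, a selectin ligand on white blood cells. Its log ratios were -0.19, -0.23, -0.13 and -0.43 in mice 1, 3, 4 and 5, all below 0. The mean was -0.24 ± 0.13 (SD, n = 4, limma adjusted p = 0.0322). Selplg was not past the threshold without mouse 1 (adjusted p = 0.057), mouse 3 (0.0943) or mouse 5 (0.106). In all, 3 of 7 measured genes of leukocyte integrins and PSGL-1 passed below 0 (42.9%, against 15.0% of all genes) and 0 above it (against 12.3% of all genes), and the median of their means was -0.16. In bulk lung, a change in the number of cells of a type and in the RNA per cell cannot be told apart.

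General white blood cell markers lay on the same side. Of 7 measured, 6 were past the threshold below 0 (85.7%, against 15.0% of all genes) and 0 above it (against 12.3%). The 6 include Ptprc, the CD45 gene (-0.62), and Rac2, a GTPase of blood cells (-1.06). The median of the list was between -0.32 and -0.88 by mouse. Set against that median in the same mouse, Itga4 differed by 0.15, 0.01, 0.03, 0.05 and -0.25 in mice 1 to 5. Itgb2 differed from it by 0.08, -0.00, -0.19, -0.64 and -0.45. Macrophage and monocyte markers gave 4 of 5 below 0 past the threshold (80%) and neutrophil markers 3 of 3 (100%). Eosinophil markers gave 2 of 4 below 0 (50%) and Siglecf above 0 (0.30), and lymphocyte markers 2 of 5 below 0 (40%). Of all genes, 15.0% passed below 0 and 12.3% above it. The part that numbers of these cells play in the ratios of Itgb2, Itga4 and Selplg was not tested.

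Of the 4 measured selectins and counter-receptors of the vessel wall, 1 was past the threshold below 0 (25%, against 15.0% of all genes). Above it were 0 (against 12.3% of all genes). Sele encodes E-selectin, which cytokine-activated endothelium displays to passing leukocytes. Its log ratios were -0.27, -0.25, -0.43, -0.29 and -0.66 in mice 1 to 5. All lay below 0, mouse 5 farthest, and the mean was -0.38 ± 0.17 (SD, n = 5, limma adjusted p = 0.00606). Selp, the P-selectin gene of endothelium and platelets, had 0.02, -0.06, -0.20, -0.18 and -0.07 in mice 1 to 5, with a mean of -0.10 ± 0.09 that did not pass (limma adjusted p = 0.179). Vcam1, the endothelial ligand of the Itga4 receptor, spread widely, with -0.06, -0.89, -0.43, -0.01 and -0.46 in mice 1 to 5. Mice 1 and 4 were near 0 and mouse 2 farthest below it. The Vcam1 mean of -0.37 ± 0.36 missed the threshold (limma adjusted p = 0.0552) and passed it without mouse 1 (-0.45, adjusted p = 0.0371) or without mouse 4 (-0.46, 0.0416). Vcam1 did not pass without mouse 2 (-0.24, adjusted p = 0.116), mouse 3 (-0.35, 0.147) or mouse 5 (-0.35, 0.15).

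Icam2 is carried by resting endothelium. It lay above 0 in all mice, at 0.28, 1.10, 0.06, 0.20 and 0.30 in mice 1 to 5, and the mean of 0.39 ± 0.41 did not pass (limma adjusted p = 0.0708). Mouse 2 stood far above the others, and without it the mean was 0.21. Cldn5, the claudin that seals endothelial junctions, had the largest positive ratio among the adhesion genes: 0.21, 1.25, 0.59, 0.65 and 0.96 in mice 1 to 5. Every mouse lay above 0, mouse 1 nearest to it. The Cldn5 mean was 0.73 ± 0.39 (SD, n = 5, limma adjusted p = 0.00628), 1.66-fold under base 2. Endothelial markers outside the adhesion genes lay on the Cldn5 side, with list medians between 0.25 and 0.72 by mouse. Of 7 measured, 6 passed above 0 (85.7%, against 12.3% of all genes) and 0 below it (against 15.0%). They include Ace (0.82), the angiotensin-converting enzyme gene, and Eng (0.64), the endoglin gene. Sele thus lay on the side opposite to these markers; the part of endothelial cell number in the ratios of Cldn5 and Icam2 was not tested.

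**Figure D2:**
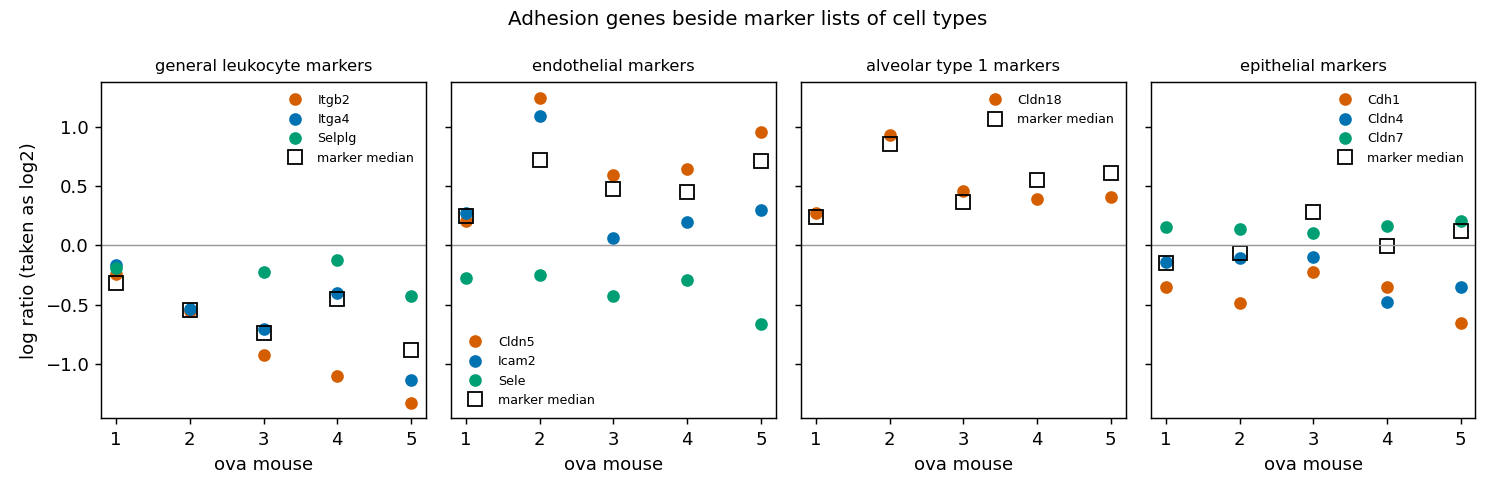
Log ratio (y axis, taken as log2) of adhesion genes (points) in each ova mouse (x axis), beside the median of a marker list of the cell type named above each panel (open squares). Itga4 lies closer to the general white blood cell median than Itgb2 does in mice 3 to 5, Cldn5 and Icam2 share the positive side with endothelial markers while Sele does not, and Cldn18 shares it with alveolar type 1 markers.

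Upstream sequence was available for 52 of the 76 genes, 15 of the 20 past the threshold among them, from RefSeq's promoter table (GRCm38.p6). It is shown for Itga4, Sele and Cldn5, chosen after their values were seen, as the matched leukocyte, vessel wall and junction genes with means farthest from 0 among those past the threshold. Itgb2, Selplg, Cdh1, Cdh17 and Cldn13 were not matched. Each line gives the 250 bases before the annotated start, 5′ to 3′ on the gene's strand, with capitals marking matches to a set of 7 short motifs on either strand.
Itga4, chr2:79255176-79255425, plus strand: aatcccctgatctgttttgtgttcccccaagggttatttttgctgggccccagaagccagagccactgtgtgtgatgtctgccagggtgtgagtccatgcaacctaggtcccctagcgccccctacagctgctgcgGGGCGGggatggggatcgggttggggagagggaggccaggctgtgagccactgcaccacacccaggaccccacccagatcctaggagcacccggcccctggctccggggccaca
Sele, chr1:164047984-164048233, plus strand: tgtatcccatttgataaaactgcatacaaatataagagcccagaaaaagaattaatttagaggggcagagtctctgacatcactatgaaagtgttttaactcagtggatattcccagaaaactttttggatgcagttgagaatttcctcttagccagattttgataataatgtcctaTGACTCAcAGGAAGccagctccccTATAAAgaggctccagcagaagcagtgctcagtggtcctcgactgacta
Cldn5, chr16:18776597-18776846, plus strand: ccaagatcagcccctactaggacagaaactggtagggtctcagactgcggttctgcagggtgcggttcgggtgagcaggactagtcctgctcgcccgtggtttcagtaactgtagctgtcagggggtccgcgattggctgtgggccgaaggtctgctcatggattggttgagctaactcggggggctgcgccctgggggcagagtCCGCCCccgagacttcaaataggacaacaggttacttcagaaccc

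The motifs were a kappa-B type site (GGG and TTTCC with any 2 bases between), the TATA box (TATAAA), the GC box (GGGCGG), the E-box CAGGTG, a core of NKX2-1 sites (CTCAAG), an ETS type core (AGGAAG) and the AP-1 site (TGACTCA). Over all 32851 promoters of the same length they were held by 1.41%, 12.4%, 32.7%, 17.2%, 13.3%, 29.5% and 4.46%, in that order. Sele held an AP-1 match beginning 73 bases before the start, an ETS type match at 65 and a TATA box at 49, with none overlapping another. Itga4 and Cldn5 held a GC box each, at 114 and 45 bases before the start. GC content was 40.4% for Sele, 64.0% for Itga4 and 59.6% for Cldn5, against a median of 52.4% over all promoters. A match describes these letters and not a bound site.

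Integrins that bind matrix were on both sides. Itgb1, the beta chain shared by most matrix receptors and also the partner of Itga4, had 0.05, 0.16, 0.33, 0.49 and 0.54 in mice 1 to 5. All lay above 0 and the mean was 0.31 ± 0.21 (SD, n = 5, limma adjusted p = 0.0221). It was not past the threshold without mouse 3 (adjusted p = 0.0722), mouse 4 (0.0676) or mouse 5 (0.0764), and its 2 probes gave means of 0.48 and 0.15. Itgav, the alpha chain of vitronectin receptors and of activators of latent TGF-beta, had -0.11, -0.20, -0.31, -0.28 and -0.32 in mice 1 to 5. Averaged over probes, its values were tight and all below 0, with a mean of -0.24 ± 0.09 (SD, n = 5, limma adjusted p = 0.00965). Its 3 probes averaged -0.20, -0.30 and -0.21, but in mouse 3 they read 0.002, -0.58 and -0.35. The collagen receptor chain Itga2 (-0.16), the fibronectin receptor chain Itga5 (0.12, n = 4) and Itga8 of smooth muscle and fibroblasts (-0.10) did not pass, with limma adjusted p-values of 0.249 or more.

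Chains that pair in 1 receptor, stand together on the vessel wall or belong to the same junction were compared within mice. For 8 such pairs, chosen after the single values were seen, the difference was taken mouse by mouse and tested by an exact two-sided sign-flip permutation test. Itgb2 minus Itgax averaged -0.67 ± 0.48 and Sele minus Selp -0.28 ± 0.19 (SD), both below 0 in 5 of 5 mice. Itgb2 minus Itgam averaged -0.61 ± 0.47 and was below 0 in 4 of 4 mice. These pairs too were chosen with both means known, so the counts of mice are a description. In the other 5 pairs the members lay on opposite sides of 0 in every mouse, so the sign of the difference was set by the choice of pair and the sizes are a description. Itga4 minus Itgb1 was -0.21, -0.70, -1.03, -0.90 and -1.68 in mice 1 to 5, a mean of -0.90 ± 0.53 (SD). Itgav minus Itgb1 averaged -0.56 ± 0.30, Vcam1 minus Icam2 -0.75 ± 0.72, Cldn4 minus Cldn18 -0.73 ± 0.25 and Cdh1 minus Cdh17 -0.73 ± 0.27. The exact p was 0.0625 with 5 mice and 0.125 with 4, the smallest that these numbers allow, and 0.0714 and 0.125 after Benjamini-Hochberg adjustment over the 8 pairs. No pair could therefore reach 0.05.

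Among epithelial adhesion genes, Cdh1 was on the negative side. It encodes E-cadherin, the cadherin of epithelial adherens junctions. Its log ratios were -0.35, -0.49, -0.22, -0.35 and -0.66 in mice 1 to 5, and all mice lay below 0. The mean was -0.41 ± 0.17 (SD, n = 5, limma adjusted p = 0.00407), the smallest adjusted p among the 52 genes. Cdh17, a cadherin known from intestine, was on the other side at 0.14, 0.48, 0.27, 0.31 and 0.39 in mice 1 to 5, with a mean of 0.32 ± 0.13 (SD, n = 5, limma adjusted p = 0.00649). All 5 mice lay above 0, so the values of Cdh1 and Cdh17 did not overlap. Cdh16, a kidney cadherin, gave 0.13 and did not pass.

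Of the other cadherins, 1 of 6 measured passed (16.7%, against 27.3% of all genes). Cdh15, the muscle cadherin, had -0.23, -0.40, -0.13, -0.34 and -0.48 in mice 1 to 5, a mean of -0.32 ± 0.14 (SD, n = 5, limma adjusted p = 0.00752). Every mouse lay below 0. The neural and mesenchymal cadherin genes Cdh2 (-0.02, n = 4) and Cdh11 (0.07) and Cdh13 (0.10), whose product is anchored by lipid in vessels and muscle, had values on both sides and did not pass, as was true of Cdh10 (0.05) and Cdh20 (0.03). Smooth muscle markers gave 2 of 4 past the threshold below 0 (50%, against 15.0% of all genes). Heart muscle markers gave 3 of 6 above 0 (50%, against 12.3%), with medians between -0.11 and 0.53 by mouse. The part of muscle tissue in the ratio of Cdh15 was not tested.

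Claudins, which set the tightness and ion selectivity of the paracellular seal, were also on both sides. Leaving out the endothelial Cldn5 and the myelin claudin Cldn11, 13 were measured, of which 3 were past the threshold below 0 and 3 above it (23.1% each, against 15.0% and 12.3% of all genes). One of those below 0, Cldn10, rests on 1 of 2 probes that disagreed. Cldn18, a claudin of alveolar epithelium in lung, had 0.28, 0.93, 0.46, 0.39 and 0.41 in mice 1 to 5. All mice lay above 0, mouse 2 well above the rest, but there the lower of its 2 probes was blank. The first Cldn18 probe averaged 0.64 (n = 5) and the second 0.11 (n = 3). The mean was 0.49 ± 0.25 (SD, n = 5, limma adjusted p = 0.00669), 1.41-fold under base 2. Alveolar type 1 cell markers lay on the same side, with list medians between 0.24 and 0.85 by mouse. Of 5 measured, 3 passed above 0 (60%, against 12.3% of all genes) and 0 below it (against 15.0%). The part of alveolar cell number in the ratio of Cldn18 was not tested.

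Cldn4, a sealing claudin of lung epithelium that is raised in injured alveoli in mice, lay below 0 in all mice at -0.14, -0.10, -0.09, -0.48 and -0.35 in mice 1 to 5. Mice 4 and 5 were farther from 0 than the other 3, and the mean was -0.23 ± 0.17 (SD, n = 5, limma adjusted p = 0.038). Cldn4 was not past the threshold without mouse 2 (adjusted p = 0.0541), mouse 3 (0.0586), mouse 4 (0.0872) or mouse 5 (0.125). Cldn7, a claudin of airway and other simple epithelia, was small but even, at 0.15, 0.14, 0.11, 0.17 and 0.20 in mice 1 to 5. All lay above 0, with a mean of 0.15 ± 0.04 (SD, n = 5, limma adjusted p = 0.0294). It was not past the threshold without any 1 of the mice, with adjusted p-values between 0.0616 and 0.0962. Cldn3, often found with Cldn4 in lung epithelium, had -0.42, -0.08, 0.03, -0.23 and 0.10 in mice 1 to 5 and did not pass (-0.12 ± 0.21, limma adjusted p = 0.29). The Cldn3 mean was -0.044 without mouse 1.

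Cldn22 had -0.61, -0.82, -0.11, -0.06 and -0.52 in mice 1 to 5. All lay below 0, with mice 3 and 4 close to it, and the mean was -0.42 ± 0.33 (SD, n = 5, limma adjusted p = 0.0268). It missed the threshold without mouse 1 (adjusted p = 0.0643), mouse 2 (0.0734) or mouse 5 (0.0902). Cldn13 had 0.06, 0.22, 0.13, 0.26 and 0.12 in mice 1 to 5, a mean of 0.16 ± 0.08 (SD, n = 5, limma adjusted p = 0.0409) that missed it without mouse 2 (0.116), mouse 3 (0.091), mouse 4 (0.0988) or mouse 5 (0.0888). The remaining claudins had means between -0.16 (Cldn23, limma adjusted p = 0.0553) and 0.05 (Cldn8 and Cldn9). None of them passed.

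Cldn10, a claudin with several isoforms that make ion-selective pores, averaged -0.33 ± 0.17 over its 2 probes (SD, n = 5, limma adjusted p = 0.00992), but the probes disagreed. The first had 0.06, 0.01, -0.10, 0.14 and 0.10 in mice 1 to 5, a mean of 0.04 ± 0.09 (SD). The second had -0.54, -1.04, -0.85, -0.38 and -0.67, a mean of -0.69 ± 0.26 (SD). The 2 sets of values did not overlap, and with the first probe alone Cldn10 was not past the threshold (limma adjusted p = 0.573). Cldn18 also had 2 probes. The first had 0.48, 0.93, 0.46, 0.45 and 0.90 in mice 1 to 5, and the second 0.07, 0.33 and -0.08 in mice 1, 4 and 5. In mice 2 and 3, where the second was blank, the gene's value was that of the first probe alone.

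**Figure D3:**
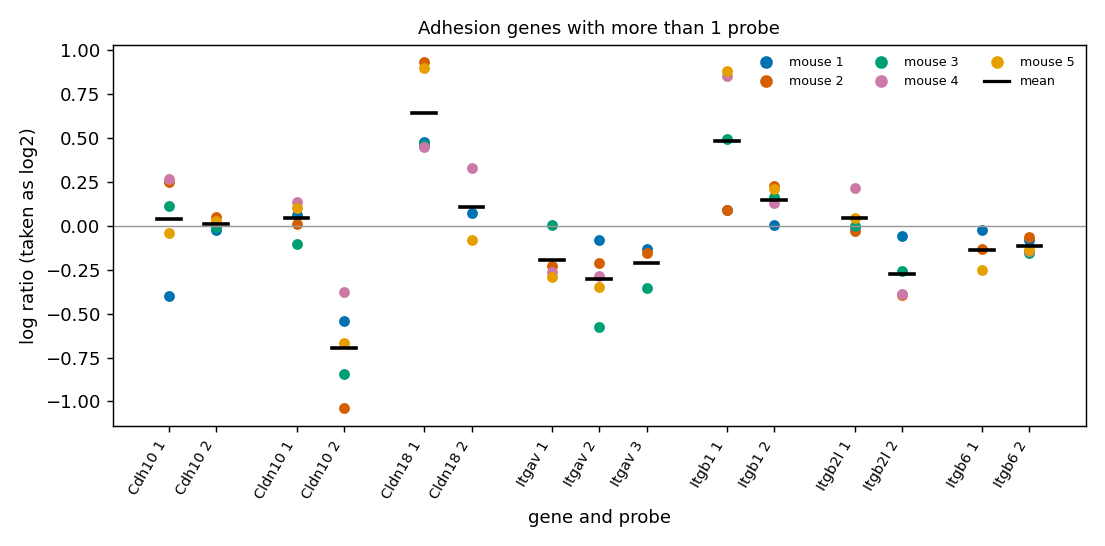
Log ratio (y axis, taken as log2) of each probe (x axis) of the 7 adhesion genes with more than 1 probe, with the 5 ova mice as coloured points and the mean as a bar. The 2 probes of Cldn10 lie apart, with means of 0.04 and -0.69. The means of the 3 probes of Itgav lie closer together, between -0.30 and -0.20, though the probes differ in mouse 3.

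RefSeq lists 2 starts each for Cldn10 and Cldn18, and the files do not say which transcripts a probe reads. The 250 bases before each start are shown because the probes of both genes disagreed.
Cldn10 start 1, chr14:118787621-118787870, plus strand: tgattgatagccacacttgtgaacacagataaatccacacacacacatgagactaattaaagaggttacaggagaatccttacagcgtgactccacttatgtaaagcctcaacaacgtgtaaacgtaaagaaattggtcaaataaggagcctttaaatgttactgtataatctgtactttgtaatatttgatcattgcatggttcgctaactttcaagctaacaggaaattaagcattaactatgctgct
Cldn10 start 2, chr14:118854700-118854949, plus strand: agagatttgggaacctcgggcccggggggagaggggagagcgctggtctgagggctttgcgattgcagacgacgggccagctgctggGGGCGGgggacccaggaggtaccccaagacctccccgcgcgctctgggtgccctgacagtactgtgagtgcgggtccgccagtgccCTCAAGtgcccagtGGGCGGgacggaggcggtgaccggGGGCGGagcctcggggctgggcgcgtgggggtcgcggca
Cldn18 start 1, chr9:99717268-99717517, minus strand: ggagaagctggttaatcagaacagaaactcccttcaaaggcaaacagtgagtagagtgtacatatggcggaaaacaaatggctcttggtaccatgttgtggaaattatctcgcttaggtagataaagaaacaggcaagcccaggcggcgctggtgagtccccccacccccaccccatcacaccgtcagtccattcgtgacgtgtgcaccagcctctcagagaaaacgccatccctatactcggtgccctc
Cldn18 start 2, chr9:99710064-99710313, minus strand: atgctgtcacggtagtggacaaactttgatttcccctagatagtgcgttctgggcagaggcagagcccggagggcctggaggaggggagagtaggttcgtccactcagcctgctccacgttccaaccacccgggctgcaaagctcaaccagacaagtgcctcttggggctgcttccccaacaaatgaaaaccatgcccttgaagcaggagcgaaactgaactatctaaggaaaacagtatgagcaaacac
The 2 Cldn10 windows differ in composition, with a GC content of 36% before the first start and 72.4% before the second. Capitals in the second mark 3 GC boxes and, 77 bases before the start, 1 CTCAAG core. None of the 7 motifs was found before the first Cldn10 start or before either Cldn18 start.

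Tight junction partners (3 measured) and epithelial integrins (4 measured) had no member past the threshold, where 27.3% of all genes passed. Ocln, the occludin gene, had 0.20, 0.31, 0.21 and -0.02 in mice 1, 2, 4 and 5 (0.18 ± 0.14, SD, n = 4, limma adjusted p = 0.0908). Tjp1, a zonula occludens scaffold gene, had -0.06, 0.44, -0.17 and -0.50 in mice 1 to 4 (-0.07 ± 0.39, SD, n = 4, limma adjusted p = 0.739). Tjp1 ran from well above 0 in mouse 2 to well below it in mouse 4, and Tjp3 averaged -0.12. Itgb6, the epithelial beta chain that activates TGF-beta together with Itgav, had -0.05, -0.10, -0.16, -0.14 and -0.20 in mice 1 to 5 (-0.13 ± 0.06, SD, n = 5, limma adjusted p = 0.0619). Itgb4, the hemidesmosome chain of basal cells, had -0.27, -0.38, 0.01, -0.09 and 0.08 in mice 1 to 5 (-0.13 ± 0.19, SD, n = 5, limma adjusted p = 0.224), or -0.067 without mouse 2. Itgb6 was below 0 in every mouse and Itgb4 was not. A probe of Itgb6 and that of Itgb4 lie 24 table positions from strong probes naming Muc4 (-1.07) and Cxcl1 (-1.27). Itga6, the partner of Itgb4, had -0.01, 0.07, 0.14, -0.12 and 0.01 in mice 1 to 5 (0.02 ± 0.10, SD, n = 5, limma adjusted p = 0.803), and Itga3, a laminin receptor chain, averaged 0.09 (n = 4).

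Leukocyte and epithelial adhesion genes were then set side by side. The leukocyte class held the 7 measured leukocyte integrins and PSGL-1, and the epithelial class 23 measured epithelial integrins, cadherins, claudins and tight junction partners. Every numbered claudin but Cldn5 and Cldn11 was put in the epithelial class by name, whatever tissue it is known from. In the leukocyte class 3 were past the threshold below 0 (42.9%, against 15.0% of all genes) and 0 above it. In the epithelial class 4 were below 0 and 4 above it, 17.4% on each side, against 15.0% and 12.3% of all genes. The class median was -0.16, -0.27, -0.23, -0.19 and -0.15 in mice 1 to 5 for the leukocyte class. For the epithelial class it was -0.03, -0.01, 0.03, -0.07 and 0.01, where the median of all genes was within 0.01 of 0. The leukocyte medians lay below the epithelial ones in all mice and did not overlap with them. Their difference, leukocyte minus epithelial, ran from -0.26 to -0.13, with a mean of -0.19 ± 0.07 (SD, n = 5). With class means in place of medians, an alternative added after the data were seen, the difference was -0.26, between -0.37 and -0.07 by mouse. With only genes measured in all 5 mice it was -0.14, between -0.28 and -0.05 by mouse. Shorter classes, also added after the data were seen, left out Itgb2l, Cdh16, Cdh17, Cldn8, Cldn9, Cldn13, Cldn22, Cldn34c4 and Cldn34d. With them the difference was -0.21, between -0.30 and -0.11 by mouse. No test was made of this difference, since the genes were chosen with results known. Both classes held genes far from their median, Itgb2 on one hand and Cdh1 and Cldn18 on the other.

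**Figure D4:**
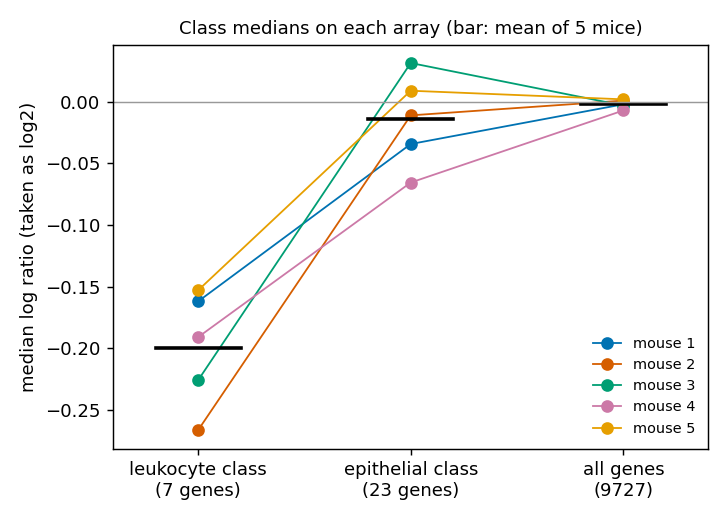
Median log ratio (y axis, taken as log2) of the leukocyte class, the epithelial class and all genes on each array, with the 5 ova mice as coloured points joined by lines to guide the eye and the mean of mice as a bar. The leukocyte medians lie between -0.27 and -0.15, below all 5 epithelial medians, which lie between -0.07 and 0.03.

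Epithelial markers outside the adhesion genes were divided in the same way. Of 7 measured, 2 were past the threshold below 0 (28.6%, against 15.0% of all genes) and 3 above it (42.9%, against 12.3%). Below 0 were Epcam, the epithelial adhesion molecule gene (-0.28), and the keratin gene Krt18 (-0.29). Above it were Sftpc (0.67), Scgb1a1 (0.70) and the keratin gene Krt8 (0.26). The list median ran from -0.15 to 0.28 by mouse. Cdh1 and Cldn4 lay on the side of Epcam and Krt18. Cldn18 and Cldn7 lay on that of Krt8, the surfactant gene Sftpc and the club cell gene Scgb1a1. Since the list held markers on both sides, any adhesion gene would share its side with some of them.

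Few other members remained. Icam5, known from neurons of the forebrain, had -0.21, -0.89, -0.07, -0.37 and -0.53 in mice 1 to 5 (-0.41 ± 0.32, SD, n = 5, limma adjusted p = 0.0265), and was not past the threshold without mouse 4 (adjusted p = 0.0628) or mouse 5 (0.0911). Icam4, known from red blood cells and their precursors, had 0.17, 0.29, 0.37, 0.19 and 0.36 in mice 1 to 5 (0.28 ± 0.09, SD, n = 5, limma adjusted p = 0.00614). Each of them kept to 1 side in every mouse. Among genes that carry a similar name but encode no adhesion receptor of these families, Itgbl1, an integrin beta-like secreted protein gene, had -0.07, 0.68, 0.52, 0.23 and 0.49 in mice 1 to 5 (0.37 ± 0.30, SD, n = 5, limma adjusted p = 0.032). Cldnd1, a claudin domain gene, had 0.34, 0.38, 0.23, -0.05 and 0.26 in mice 1 to 5 (0.23 ± 0.17, SD, n = 5, limma adjusted p = 0.0358). In both, 4 of 5 mice lay above 0. Itgbl1 missed the threshold without mouse 2, 3, 4 or 5 (adjusted p between 0.0551 and 0.109) and Cldnd1 without mouse 1, 2, 3 or 5 (0.0899 to 0.109). Itgb1bp1, which binds the Itgb1 tail and holds integrins inactive, gave -0.16 (n = 4) and did not pass.

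**Figure D5:**
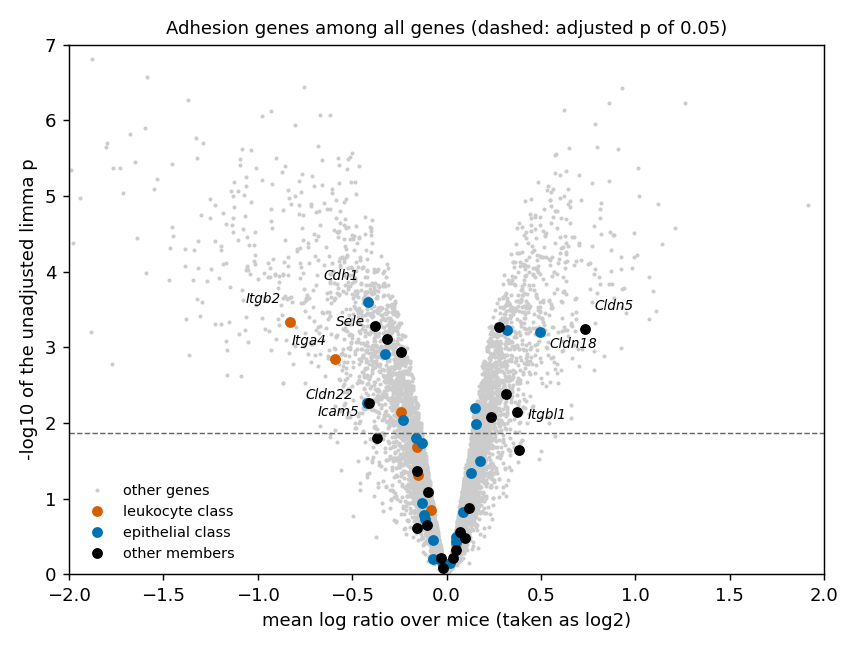
Mean log ratio over mice (x axis, taken as log2) against -log10 of the unadjusted limma p (y axis) for all genes (grey), with leukocyte adhesion genes in orange, epithelial ones in blue and the other members in black, and a dashed line at an adjusted p of 0.05. The 52 adhesion genes lie among the bulk of genes, of which 11 negative and 9 positive ones pass the line; 23 genes, no adhesion gene among them, lie outside the plotted range.

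The proteins that work with these receptors were counted from lists chosen by function. Of 24 listed genes that activate integrins or link them to actin, 12 were measured, with a list median of 0.15. Past the threshold were 4 above 0 (33.3%, against 12.3% of all genes) and 0 below it (against 15.0%). The other 8 had means from -0.38 (Skap2) to 0.49 (Tln1). Among those past it, Rapgef3, an exchange factor for Rap GTPases, had 0.92 ± 0.36. The focal adhesion genes Vcl (vinculin) and Zyx (zyxin) had 0.70 ± 0.16 and 0.45 ± 0.26 (SD, n = 5 each). Of 12 genes that make or carry selectin ligands, 2 were past the threshold below 0 (16.7%, against 15.0% of all genes), the sialyltransferase gene St3gal4 (-0.40) and the hyaluronan receptor gene Cd44 (-0.40), and 1 above it (8.33%, against 12.3%), the tyrosyl sulphotransferase gene Tpst2 (0.32).

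Of 20 measured genes behind cadherins and tight junctions, 5 were past the threshold below 0 (25%, against 15.0% of all genes) and 4 above it (20%, against 12.3%), with a list median of 0.11. The catenins divided: Ctnnb1, beta-catenin, had -0.24 ± 0.07 (n = 4) and Ctnna1, alpha-catenin, 0.25 ± 0.12 (n = 5). Below 0 with Ctnnb1 were Epcam (-0.28), Nectin4 (-0.27) and Cxadr, an adhesion molecule of tight junctions (-0.31). Above 0 with Ctnna1 were F11r, the junctional adhesion molecule A gene (0.34), and the plakophilin gene Pkp2 (0.22). The plakophilins divided too: Pkp3 was past the threshold below 0 (-0.22) and Pkp4 did not pass (-0.03).

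Of the 24 adhesion genes with values on fewer than 4 arrays, 9 had no value at all and 5 each had 1, 2 or 3 values. Just outside the rule, with 3 values, were Cdh22, Cldn2, Cldn34b2, Cldnd2 and Cldn16, and the 11 members just inside it had 4 values. The values that these genes did have lay between -0.21 and 0.24. Both platelet integrin genes, Itga2b and Itgb3, and the integrin genes Itga7 and Itga9 were among them, as were Cldn1, Cldn6 and Cdh3. The 9 without a value were Itgal, Itgb5, Itgb1bp2, Itgb3bp, Cdh4, Cdh6, Cdh9, Cdh23 and Cldn14.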

How the data were processed

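The deposited table, processed by the authors in steps not given in the sources used here, holds 1 signed log ratio per probe and array, taken as log2; neither log base nor numerator is stated, and spot brightness was not available. Probes were named from GEO's platform annotation (14722 of 17280 with 1 symbol, of which 14445 matched RefSeq's gene table, which changed 0 symbols). After median centring and averaging of a gene's probes, genes with 4 or 5 values went into an intercept model (lmFit, eBayes) in limma 3.58.1 under R 4.3.3, checked on simulated data. Tables were made in Python 3.11.15.

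Values in every array are given for the 25 members past the threshold with the smallest p (20 were past it) and for a set of well-known members fixed by name; every member past it is named. Of each list of partner proteins the 3 smallest p on each side are named. Ctnnb1, Pkp3, Pkp4, Skap2, Tln1 and the named cell type markers were picked after their values were seen. Members, classes and lists were chosen with earlier results of these data known. Alternatives were other normalizations, filters, probe summaries and weights, a minimum size, and leaving out each mouse or probes near strong ones.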

Additional observations from a re-analysis of the deposited data

Results flagged for a closer look

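In 3 of 55 sets of values tested, 1 mouse lay far from the others by Dixon's criterion, where chance alone flags about 1 in 20. Icam2 in mouse 2 stood at 1.10, with the other mice between 0.06 and 0.30. Cldn18 in mouse 2 stood at 0.93, with the others between 0.28 and 0.46; there the second, lower probe was blank, and the first probe alone gave 0.90 in mouse 5. Itga5 in mouse 4 stood at 0.35, with the other 3 mice that measured it between 0.01 and 0.06.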

How the results depend on the processing

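Over 16 alternatives, 9 of the 20 single genes past the threshold stayed past it on the same side wherever they had a value: Itgb2, Itga4, Sele, Cdh1, Cdh15, Cdh17, Cldn5, Cldn18 and Icam4. Tested against a minimum size of 0.1 (limma treat), 10 members passed, 6 negative and 4 positive, when 13.6% of all genes did; Itgav lost its call there only. Leaving out 1 mouse gave between 11 and 17 members, between 7 and 10 negative and between 4 and 7 positive; these fits have fewer arrays, and fewer of all genes pass. With the probe of most values in place of the average, Cldn10 changed side (0.0422). Its 2 probes tied at 5 values each and the first in order was taken, where the second averaged -0.69. When each mouse was left out, Itga6 ran from -0.011 (without mouse 3) to 0.053 and Tjp1 from -0.24 to 0.072 (without mouse 4), neither past the threshold. Icam2 passed under quantile normalization only (adjusted p = 0.0379), and Vcam1 under 4 alternatives. The leukocyte minus epithelial difference was between -0.21 and -0.17 when each mouse was left out and nearest to 0, at -0.14, with values on all 5 arrays; it was -0.26 with class means and -0.59 over the genes past the threshold only, a choice made on the same values, both added after the data were seen. Array weights, centring, scaling, quantile normalization and the filters left the counts within 1.5 times. No paired analysis was possible because the series holds 1 group.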
